A study of Rattus norvegicus with 17 samples.

Results

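The ubiquitin-specific proteases were followed in the skin of male CD hairless rats through every array probe whose sequence name leads to a rat Usp gene symbol, with Usp18 left out. The family was chosen by the measured exposed minus sham difference of Usp31, one of the genes with the lowest p-values, so for the members that contrast is a description, and the counts by p-value given for it support nothing. The rat RefSeq table holds 50 symbols that the naming rule takes. Of these, 34 genes had a named probe on the array, on 42 probes, and Usp22, Usp24, Usp32, Usp33, Usp34, Usp43 and 10 others had none. A probe was read as measured when it lay well above background, the scanner software's own call, on at least 8 of the 17 arrays. That left 36 probes of 30 genes, out of 20710 such probes on the array.

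One array was hybridised per skin sample, 9 from rats that received 94 GHz millimetre waves and 8 from sham rats. Exposure ran 3 h a day on 3 days a week for 5.5 months, and the age of 2 to 3 months in the labels is read here as that at its start. The design text counts 6 exposed and 8 sham animals. If that count covers these samples, at least some of the 9 exposed arrays come from a common animal. P-values and SDs over arrays, which treat each array as independent, would then be too small. Nothing in the labels says which array belongs to which animal, and p-values measure only the spread between these samples. The epidermal keratins Krt5, Krt14 and Krt15 and the dermal collagens Col1a1 and Col1a2 lay well above background on all 17 arrays. Replicate numbers below follow the order of deposit and only name an array. The 75th percentile of the signal ran from 1170 to 1703 in exposed arrays and from 1077 to 1576 in sham arrays, no spot was saturated, and precision is limited by how many arrays there are.

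Ubiquitin-specific proteases are cysteine proteases that cut ubiquitin off other proteins or trim ubiquitin chains, and they are the most numerous class of deubiquitinase in mammals. Removing ubiquitin can rescue a protein from the proteasome, change its place in the cell, or end a signal that a ubiquitin chain carries. Several members have a known setting: Usp7 acts on the Mdm2 and p53 axis, Usp8 on endosomal cargo such as the EGF receptor, Usp14 on the proteasome, Usp30 on mitochondria, and Usp3 and Usp16 on ubiquitinated histone H2A. Human USP31 has been linked to the restraint of NF-kB signalling.

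The stretch around the start of Usp31 is shown because this gene named the family. It lies on rat chromosome 1 in the assembly GRCr8, minus strand, at chr1:185709415-185709714, and runs from 250 bases before to 50 bases after the RefSeq gene start. Capitals mark GC boxes, searched as GGGCGG on both strands.
Usp31: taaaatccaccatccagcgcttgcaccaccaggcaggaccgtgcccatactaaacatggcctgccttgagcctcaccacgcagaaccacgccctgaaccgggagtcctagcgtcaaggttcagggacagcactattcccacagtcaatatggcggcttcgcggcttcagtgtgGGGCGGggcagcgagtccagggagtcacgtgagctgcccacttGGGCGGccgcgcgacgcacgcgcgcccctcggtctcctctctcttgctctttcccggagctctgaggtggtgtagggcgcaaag

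This window holds 2 GC boxes and 23 CG dinucleotides. Over all 27457 RefSeq windows of that length 34.9% held a GC box, with a median of 7 CG dinucleotides. Of the 26 measured members with a window in the table, 18, or 69.2%, held one. The 27457 windows were not restricted to genes measured here, so these shares come from unlike sets. The 29 members with a window, measured or not, had a median of 22 CG dinucleotides, from 2 for Usp39, a splicing factor that lacks protease activity, to 42 for Usp28, a deubiquitinase of the DNA damage response. These are matches of letters, and no binding was measured.

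Usp31 was a dim gene in this skin. Its brighter probe gave a processed signal of 23.9 to 37.6 (median 31.1) in exposed skin and 31.4 to 63.1 (median 39.6) in sham skin. The median signal of an array was 93.9 to 149, yet this probe counted as well above background on all 17 arrays. On the log2 scale relative to each array's 75th percentile, used from here on, its lowest, median and highest values were -5.89, -5.61 and -5.06 in exposed skin, against -5.65, -4.92 and -4.64 in sham skin. All 9 exposed arrays lay below the sham mean and 4 of them below the lowest sham array. The ranges overlapped through exposed replicate 2, the highest of its group, and sham replicate 2, the lowest of its group. Its means were -5.57 ± 0.25 (SD, n = 9) in exposed skin and -4.98 ± 0.32 (SD, n = 8) in sham skin, a difference of -0.58, which by slide was -0.32, -0.66, -0.57 and -0.88.

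The other Usp31 probe, which belongs to the same RefSeq accession, was dimmer and did not repeat that separation. By the scanner call it was well above background on 4 of the 17, namely 2 exposed and 2 sham, so it was not among the 36. Its lowest, median and highest values were -6.92, -6.43 and -5.77 in exposed skin, against -7.33, -6.54 and -4.56 in sham skin. The exposed values lay inside the sham range, and 6 of 9 fell below the sham mean. Its means were -6.42 ± 0.38 (SD, n = 9) in exposed skin and -6.25 ± 0.88 (SD, n = 8) in sham skin, a difference of -0.17. By slide that difference was -0.90, -0.044, 0.40 and -0.22 on slides 1 to 4. For the brighter probe the difference shrank to -0.29 when background was instead modelled with normexp and to -0.21 when quantile scaling followed, and for the dimmer one it was -0.12 with normexp. Normexp was run with an offset of 50 added to every signal, which by itself narrows log2 differences of dim probes. How far the offset or the nearness of the background sets the size of the Usp31 difference was not tested.

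**Figure D1:**
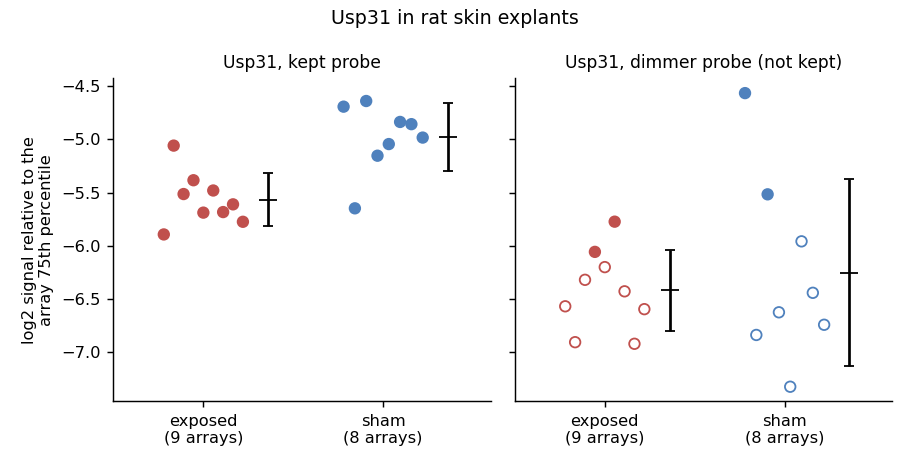
Log2 signal of both Usp31 probes on each array, exposed at left and sham at right in each panel; filled points are well above background, open points are not, and bars give the mean and SD. On the kept probe the exposed arrays spread from -5.89 to -5.06 and the sham arrays from -5.65 to -4.64, while on the dimmer probe the exposed arrays fall within the sham range and 4 of 17 points are filled.

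Correlations of the other members with Usp31 went both ways. With the group means taken out, the Pearson correlation of the other 35 kept family probes with Usp31 over the 17 arrays had a median of 0.025, with a lowest value of -0.61 and a highest of 0.58. Among 10312 genes that were well above background on all arrays, the highest correlations belonged to Tnfrsf4 at 0.86 and Cotl1 at 0.82, followed by Tnfrsf14 at 0.82, Gpc1 at 0.79 and Il7r at 0.78. Tnfrsf4 encodes the T cell receptor OX40, Tnfrsf14 the herpesvirus entry mediator, Il7r the interleukin 7 receptor, Cotl1 an actin-binding protein and Gpc1 a cell surface proteoglycan. The lowest were Hadhb at -0.84, a subunit of mitochondrial fatty acid oxidation, Sh3yl1 at -0.81, the histone deacetylase gene Hdac3 at -0.79, the carboxylesterase gene Ces2c at -0.79 and the acyl-CoA synthetase gene Acsl4 at -0.78. The median size of this correlation over all genes was 0.24. These correlations describe 17 arrays that share slides, and the highest and lowest of so many genes are extreme by selection.

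Across the explants most members varied little. The SD over all 17 arrays had a median of 0.13 over the 36 kept probes and of 0.19 over all 20710 probes, and 7 of the 36 lay above the latter median. The steadiest members were Usp48 with an SD of 0.064 on its brighter probe, Usp1, which with its partner Wdr48 acts on Fancd2 and Pcna in DNA repair, at 0.073, and Usp14, the protease that docks on the proteasome, at 0.076. Usp48 lay between 0.75 and 0.94 (median 0.85) in exposed skin and between 0.81 and 0.99 (median 0.86) in sham skin. Usp14 lay between 0.46 and 0.72 (median 0.64) in exposed skin and between 0.52 and 0.70 (median 0.57) in sham skin. All arrays thus held these genes within a narrow band. At the other end, among members well above background on all arrays, stood Usp31 at 0.41, the nucleolar protease gene Usp36 at 0.22 and Usp5 at 0.22, whose product takes apart free ubiquitin chains. The widest of all was Usp13 at 1.07, which ranks at the 98.1 percentile of the 20710 probes. These SDs include the exposed minus sham difference, through which the family was chosen. Pooled within the groups, the SD was 0.28 for Usp31, 0.21 for Usp5 and 0.19 for Usp36. Usp36 then lay below Usp39 and the dimmer Usp25 probe, both at 0.20, so its place among the widest rests on that difference.

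**Figure D2:**
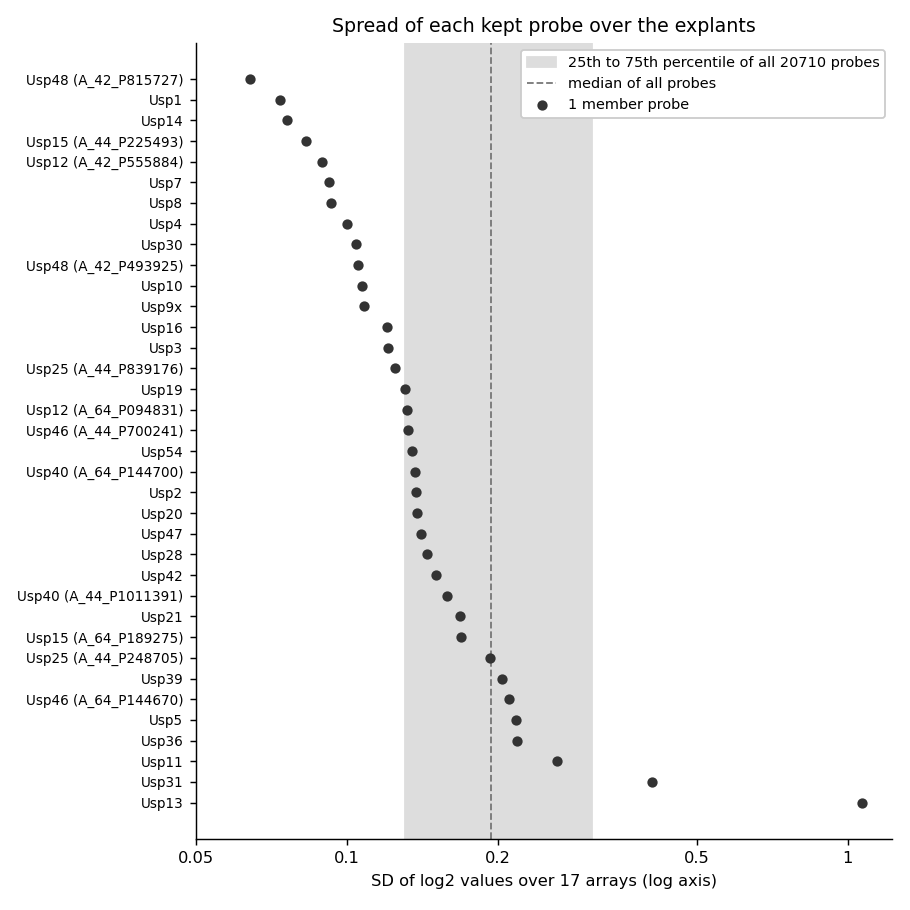
SD of the log2 values of each kept probe over the 17 arrays, on a log axis; the grey band is the 25th to 75th percentile of all 20710 probes and the dashed line their median of 0.19. Most members sit left of the dashed line, and Usp13 stands far to the right at 1.07.

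Usp13, the closest relative of Usp5 and in human tissues a gene with high levels in skeletal muscle, was high on 3 arrays. Its lowest, median and highest values were -5.77, -5.39 and -2.73 in exposed skin, against -6.22, -5.51 and -3.20 in sham skin. The high arrays were exposed replicate 4 at -2.73, exposed replicate 8 at -2.83 and sham replicate 3 at -3.20, and the next was sham replicate 5 at -4.59. Well above background were 9 of the exposed arrays and 4 of the sham arrays. The 3 high arrays also had the highest skeletal muscle scores. This score, which averages the deviation of 11 marker genes such as Tnnt3, Ckm and Acta1 from their means over the arrays, was 5.18, 5.36 and 4.73 on them. Over the groups the score ran from -2.91 to 5.36 in exposed skin and from -2.92 to 4.73 in sham skin. Of the 11 markers 10 were well above background on all 17 arrays, and the myosin gene Myh1 on 12, so at least 10 of the 11 markers were detected in every explant.

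The slope of each probe on this score was fitted with limma on all 17 arrays with group in the model, and p-values were adjusted over all probes. Usp13 rose by 0.32 log2 units per unit of score (SE 0.043, 95% interval 0.23 to 0.41, limma adjusted p = 0.000301). It was the only one of the 36 kept family probes past the adjusted threshold of 0.05, against 0.913% of all probes, and 0.898% with a positive slope. At an unadjusted p under 0.05 in limma there were 2 family probes, against 7.12% of all probes. The markers themselves had slopes of 0.59 for Eno3 to 1.53 for Myh1. The score is made from these markers, so they rise with it by construction, and they are counted in the 0.913%. The shares of all probes given below for the other scores also keep each score's own markers in. The slope of Usp13 rests on the 3 muscle-rich arrays: without them it was 0.13 (limma adjusted p = 0.664). With slide as a block it was 0.29 (limma adjusted p = 0.0564), and within slides it was 0.24 on slide 1, 0.33 on slide 2 and -0.050 on slide 4, with 5, 6 and 4 arrays. In such bulk tissue a larger share of muscle cells and more Usp13 RNA per cell cannot be told apart. The relative Usp5 had a slope of 0.021 (95% interval -0.016 to 0.058, limma adjusted p = 0.949).

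**Figure D3:**
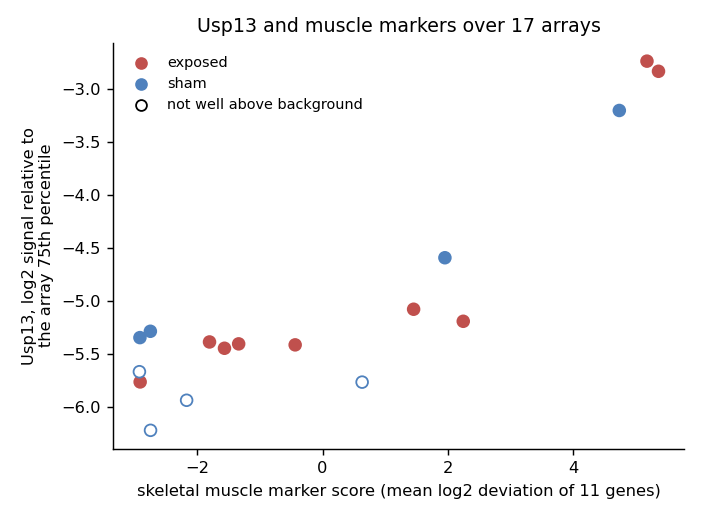
Usp13 on the vertical axis against the skeletal muscle marker score on the horizontal axis, both on log2 scales, 1 point per array; open points are not well above background. The 3 arrays with a score above 4.7 hold the 3 highest Usp13 values, from -3.20 to -2.73, and the other 14 lie at -4.59 or lower.

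The windows around the starts of Usp13 and Usp5 are shown side by side, since these relatives had unlike slopes. Usp13 lies on the plus strand at chr2:117505193-117505492 and Usp5 on the minus strand at chr4:159320907-159321206, both in GRCr8. Capitals mark E boxes, searched as CANNTG on both strands, and the MEF2 consensus, which muscle regulators of the MyoD and MEF2 families are known to bind.

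Usp13: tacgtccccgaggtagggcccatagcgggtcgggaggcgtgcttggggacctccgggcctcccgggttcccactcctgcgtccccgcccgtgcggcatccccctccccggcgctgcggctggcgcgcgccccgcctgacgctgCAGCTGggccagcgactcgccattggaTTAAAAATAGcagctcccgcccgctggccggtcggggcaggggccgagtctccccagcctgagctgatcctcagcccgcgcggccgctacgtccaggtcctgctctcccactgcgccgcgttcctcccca
Usp5: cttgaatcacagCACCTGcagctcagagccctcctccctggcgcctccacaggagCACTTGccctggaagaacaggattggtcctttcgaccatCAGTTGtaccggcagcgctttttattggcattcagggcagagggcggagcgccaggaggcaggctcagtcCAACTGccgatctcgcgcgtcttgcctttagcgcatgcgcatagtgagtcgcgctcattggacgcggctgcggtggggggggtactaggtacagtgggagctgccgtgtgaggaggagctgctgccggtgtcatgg

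Usp13 held 1 E box, CAGCTG, and 1 match to the MEF2 consensus, TTAAAAATAG, which do not overlap. Usp5 held 4 E boxes and no such match. Of all 27457 windows, whether their gene was measured or not, 71.6% held an E box and 3.37% the MEF2 consensus. Of the 26 measured members 18 and 1 did, so that Usp13 was the member with the latter. The consensus was chosen after the Usp13 window had been read, and neither match is a site of measured binding.

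For the other 5 scores no member passed in that fit. On the hair follicle score, 16 genes such as Krt25, Krt27 and Dsg4, 0 of 36 probes passed in limma, against 4.29% of all probes, and 6 had an unadjusted p under 0.05, against 21.6%. The smallest p belonged to Usp39, with a slope of 0.055 (SE 0.019, limma adjusted p = 0.102). That score was lowest on sham replicate 5, at -6.09, and exposed replicate 4, at -3.43. Without these 2 arrays Usp20, a relative of Usp33, passed with a slope of -0.10 (limma adjusted p = 0.00634) and so did the brighter probe of Usp46 with -0.085 (limma adjusted p = 0.0408). With slide as a block Usp5 passed with a slope of 0.069 (limma adjusted p = 0.0354). The share of all probes that passed in these refits is not given here. Both probes of Usp25 had small slopes of opposite sign on this score, 0.046 and -0.033, and neither passed.

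The adipocyte, macrophage, proliferation and clock scores also left the family below the threshold. On the adipocyte score 0 of 36 probes passed in limma, against 0.0917% of all probes, and 8 had an unadjusted p under 0.05, against 14.9%, with Usp42, a nuclear protease linked to p53, first at a slope of -0.14 (SE 0.040, limma adjusted p = 0.151). On the macrophage score 0 passed, against 0.193%, with 0 at an unadjusted p under 0.05 in limma, against 12.4%, and the reticulum-anchored Usp19 came first at -0.20 (SE 0.10, limma adjusted p = 0.421). On the proliferation score 0 passed in limma, against 1.02%, with 4 at the unadjusted level, against 13.7%, and Usp39 came first at 0.57 (SE 0.22, limma adjusted p = 0.260). On the clock score, the output genes such as Dbp and Per3 minus the activators such as Npas2, 0 passed in limma, against 0.0193%, and 1 had an unadjusted p under 0.05, against 8.28%. That 1 was Usp13 at 3.19 (SE 0.98, limma adjusted p = 0.469). Exposed replicate 4, with the highest Usp13 value and a muscle score of 5.18, also had the highest clock score, 0.56. The clock and muscle slopes of Usp13 thus share that array. Usp13 was also among the 8 probes on the adipocyte score, with a slope of 0.96 (SE 0.35, limma adjusted p = 0.228). Usp2, which is a clock-controlled gene in mouse tissues, had a clock slope of 0.15 (95% interval -0.19 to 0.49, limma adjusted p = 0.834), and Usp1 a proliferation slope of 0.047 (95% interval -0.20 to 0.30, limma adjusted p = 0.899).

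**Figure D4:**
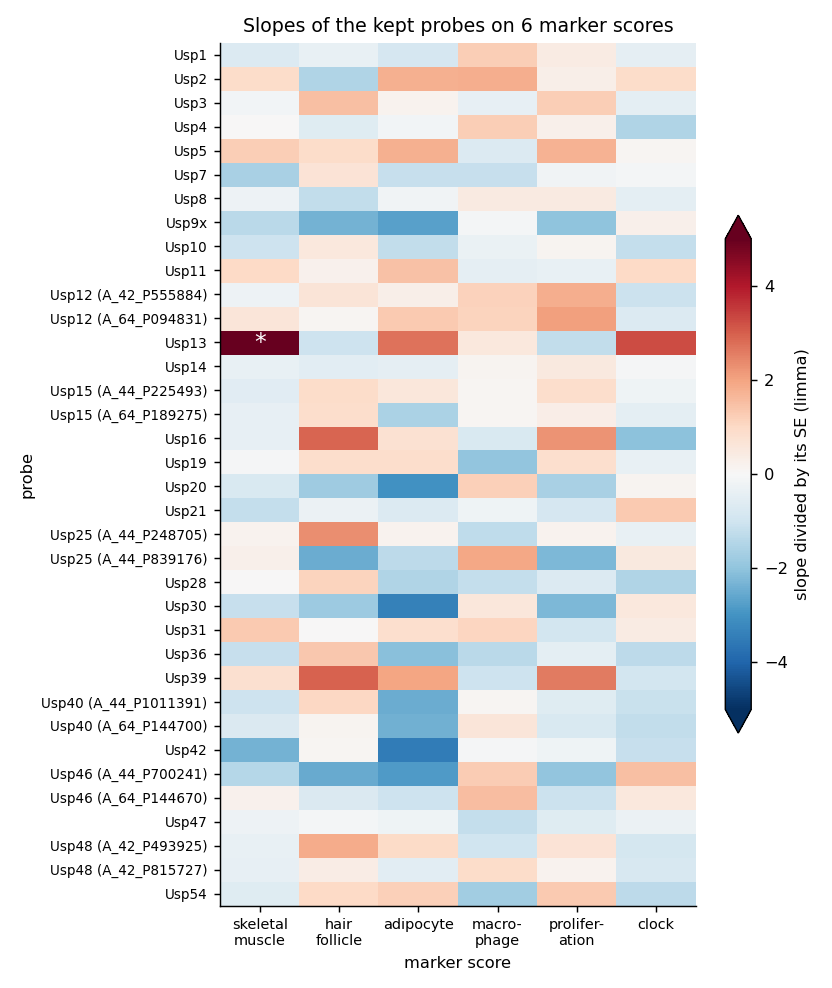
Slope of each kept probe on each of 6 marker scores, divided by its SE, with red for positive and blue for negative slopes and the colours capped at 5 either way; an asterisk marks a limma adjusted p under 0.05. The asterisk stands at Usp13 on the muscle score and nowhere else.

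Between exposed and sham skin most members had small differences. Of the 36 kept probes 27 were lower and 9 higher in exposed skin, or 75% lower, against 61.3% of all probes, and the median difference was -0.044, against -0.025 for all probes. As a description of the fit that chose the family, 0 of the 36 had a limma adjusted p under 0.05, against 0% of all probes. At an unadjusted p under 0.05 there were 6, all lower in exposed skin, against 4.55% of all probes in both directions and 3.96% that were lower. Nothing is read from these counts. The groups of 0 of 36 probes were free of overlap, against 0.00483% of all probes. The 6 were Usp31, Usp42, Usp36, Usp8, and 1 of 2 probes each of Usp46 and Usp15.

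**Figure D5:**
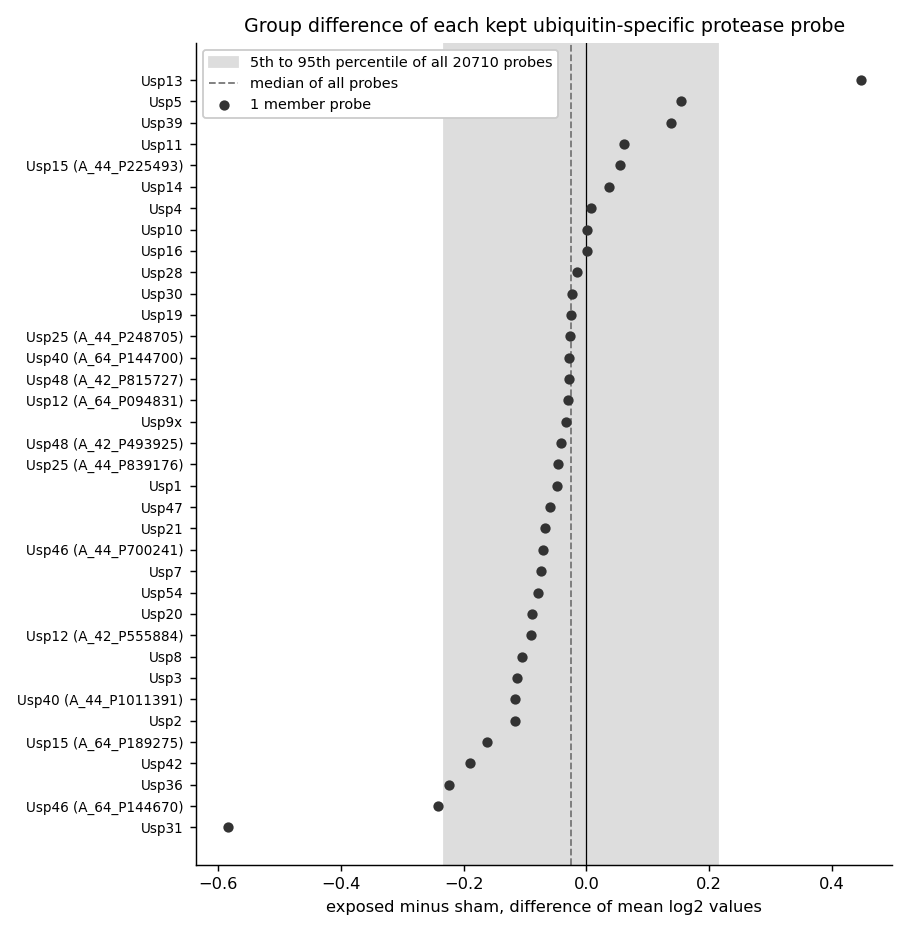
Exposed minus sham difference of the mean log2 value for each kept probe, highest at the top; the grey band is the 5th to 95th percentile of all 20710 probes and the dashed line their median. Usp31 at -0.58 and Usp13 at 0.45 lie far outside the band and the dimmer Usp46 probe at -0.24 just outside, and the remaining probes fall within it.

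Among the members that act on chromatin and in the nucleus, Usp42 had lowest, median and highest values of 0.44, 0.57 and 0.67 in exposed skin, against 0.53, 0.77 and 1.02 in sham skin. Every exposed array lay below the sham mean, and 2 lay below all sham arrays. Its means were 0.56 ± 0.065 (SD, n = 9) in exposed skin and 0.75 ± 0.16 (SD, n = 8) in sham skin, a difference of -0.19, which by slide was -0.22, -0.10, 0.0068 and -0.26. Usp36 ran from -0.75 to -0.43 (median -0.66) in exposed skin and from -0.82 to -0.10 (median -0.36) in sham skin. The exposed arrays thus lay inside the wider sham range. Its difference was -0.22, and on slide 3, with 1 array of each group, it was 0.30. The histone H2A proteases differed by -0.11 for Usp3 and 0.0012 for Usp16, whose sign turned with slide as a block, and the splicing factor Usp39 by 0.14.

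Of the members tied to membranes and organelles, Usp8 ran from -0.57 to -0.35 (median -0.40) in exposed skin and from -0.47 to -0.17 (median -0.31) in sham skin. All 9 exposed arrays fell below the sham mean, although the difference was only -0.11. The mitochondrial Usp30 differed by -0.024, the reticulum-anchored Usp19 by -0.025 and the proteasomal Usp14 by 0.036. Usp9x, an X-linked member, differed by -0.033.

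In the trio of relatives Usp4, Usp11 and Usp15 the probes did not move together. Usp4 differed by 0.0079 and Usp11 by 0.061, both with a sign that turned under normexp. The brighter Usp15 probe differed by 0.054 and its other probe by -0.16, although both belong to the same RefSeq accession. The latter ran from -1.16 to -0.68 (median -0.90) in exposed skin and from -0.98 to -0.59 (median -0.74) in sham skin, with 4 of 9 exposed arrays below every sham array. The opposite signs leave no single direction for Usp15.

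Usp1, Usp12 and Usp46 work with the scaffold protein Wdr48. Usp1 differed by -0.049, both Usp12 probes by -0.031 and -0.090, and the brighter Usp46 probe by -0.070. The dimmer Usp46 probe ran from -2.96 to -2.29 (median -2.46) in exposed skin and from -2.48 to -2.11 (median -2.29) in sham skin, a difference of -0.24 with all 9 exposed arrays below the sham mean. Both Usp46 probes were lower, but the sizes were unlike. A list of 13 genes taken as partners covered the whole family and not only Usp1, Usp12 and Usp46. Of its 10 measured genes 0 passed the limma test and 0 had an unadjusted p under 0.05, with 6 higher and 4 lower. Of all probes 0% passed, 4.55% had such an unadjusted p and 61.3% were lower. The ESCRT gene Stam2, a partner of Usp8, was at -0.11 and the proteasomal ubiquitin receptor gene Adrm1 at 0.063.

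The relatives Usp5 and Usp13 were both higher in exposed skin, by 0.15 and 0.45. Usp5 averaged -3.01 ± 0.26 (SD, n = 9) in exposed skin and -3.16 ± 0.13 (SD, n = 8) in sham skin, and 3 of 9 exposed arrays lay below the sham mean. The Usp13 means were -4.81 ± 1.16 (SD, n = 9) in exposed skin and -5.25 ± 0.97 (SD, n = 8) in sham skin, so the difference was well within the spread. The muscle score averaged 0.69 ± 3.05 (SD, n = 9) in exposed skin and -0.77 ± 2.90 (SD, n = 8) in sham skin. With that score in the model the Usp13 difference was -0.017. By slide it was 0.79, -0.42, 1.76 and -0.19, without exposed replicate 4 it was 0.19, and without sham replicate 3 it was 0.74.

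Of the other members, Usp2 differed by -0.12, Usp7 by -0.074, Usp47, a relative of Usp7, by -0.059, Usp20 by -0.088, Usp21 by -0.068, Usp54 by -0.079 and Usp10 by 0.0015, a sign that turned with slide as a block. Both probes were lower for Usp25, by -0.026 and -0.046, for Usp40, by -0.12 and -0.028, and for Usp48, by -0.042 and -0.029. Usp28, a relative of Usp25, was at -0.015, a sign that turned under median scaling and array weights. Usp26, Usp29 and Usp49 were not well above background on any array and Usp51 on 1 sham array by 1 of its 2 probes, so no difference is given for these 4 genes.

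Deubiquitinases of other families and the ubiquitin genes showed no call either. Of 24 measured genes on a list of 32 other deubiquitinases 0 passed in limma, with 8 higher, 16 lower and a median difference of -0.037, against 61.3% lower and a median of -0.025 for all probes. An unadjusted p under 0.05 belonged to 3, against 4.55% of all probes, and these were named after their values were seen, Otud4 at -0.23, Otud5 at -0.14 and the endosomal protease gene Stambpl1 at 0.15. For ubiquitin genes and activating enzymes, 0 of 7 measured passed in limma and 0 had an unadjusted p under 0.05, against 0% and 4.55% of all probes. Among them Rps27a, which encodes ubiquitin fused to a ribosomal protein, was at -0.094. On the NF-kB list 0 of 18 measured genes passed in limma, 2 had an unadjusted p under 0.05, and 3 were higher and 15 lower with a median of -0.066, against 4.55% of all probes at that p, 61.3% lower and a median of -0.025. These 2 were the kinase gene Chuk, which averaged -2.67 ± 0.10 (SD, n = 9) in exposed skin and -2.49 ± 0.11 (SD, n = 8) in sham skin, and the inhibitor gene Nfkbia at -0.19.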

How the data were processed

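Spot brightness was deposited as linear intensity, extracted by Agilent Feature Extraction 10.7.3.1 under protocol GE1_107_Sep09, per the file headers. The processed signal is background-subtracted and detrended within an array and is not scaled between arrays, per the file headers. The deposited value table holds log2 values with row medians near 0 for 14853 probes. Its columns correlated at 0.981 to 0.999 with scanner values centred alike, with column medians from -0.037 to 0.041, so its direction is known, while its scaling is not given in the sources used here. The flags of each spot come from the same software, per the file headers.

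From the processed signal, log2 was taken and each array's 75th percentile subtracted, averaged over the spots of a probe without control spots and outlier spots. Of 30367 probes, 20710 were kept. Sequence names were matched to RefSeq symbols of GRCr8 by accession, for 17998 probes. The array grid is annotated on rn4, so only RefSeq promoter windows carry coordinates. Where a gene had more than 1 kept probe, the brightest on average stood for it, except where both are given. Group differences and slopes came from limma 3.58.1 (R 4.3.3), and Benjamini-Hochberg adjustment covered every kept probe. Scores came from 6 marker lists. The fits were tested on simulated data with independent normal noise for each probe. That simulation held no slide effect and no arrays from a common animal, so it cannot bear on either. Arrays lay on 4 slides, per the barcodes in the file headers, whose endings the titles repeat, with 3, 4, 1 and 1 exposed and 2, 2, 1 and 3 sham arrays. Named genes were Usp31, members with an unadjusted p under 0.05 between groups, the first on each score, the 3 widest and 3 steadiest in spread, the 5 genes most and the 5 least like Usp31, and the 2 with the smallest p in each other list, of which 1 is not reported here. Relatives by protein identity were planned, and no protein sequence was used here. The members and lists were chosen with earlier results of these data known.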

Additional observations from a re-analysis of the deposited data

Results flagged for a closer look

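In 3 of 60 sets of arrays, 2 groups for each of 30 genes, 1 array stood apart from the rest by Dixon's test at its 95% critical value, and chance sets apart about 1 set in 20. Usp12, on its brighter probe, was at -0.91 on exposed replicate 6, against -1.27 on the next array of that group. Usp15, on its brighter probe, was at -0.33 on exposed replicate 1, against -0.51 on the next. Usp48, on its brighter probe, was at 0.99 on sham replicate 6, against 0.89 on the next.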

How the results depend on the processing

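The Usp31 difference of -0.58 was -0.29 under normexp and -0.21 under normexp with quantile scaling, the latter chosen after seeing the data, and ran from -0.68 to -0.54 without single arrays. The other settings tried left it between -0.63 and -0.56, and the deposited value table does not list that probe. Both normexp settings added an offset of 50 to every signal, which by itself narrows log2 differences and slopes of dim probes. The Usp13 difference of 0.45 was -0.017 with the muscle score as a covariate, chosen after seeing the data, was 0.14 under normexp, and ran from 0.19 to 0.74 without single arrays. The count of 1 family probe with a slope on the muscle score was 0 with slide as a block, with the 6 scores together and without the 3 muscle-rich arrays. It was also 0 with probes well above background on all 17 arrays and in the value table, since neither holds the Usp13 probe. The slope itself was 0.29, 0.27 (limma adjusted p = 0.0892) and 0.13 under the first 3 of these, 0.17 under both normexp settings, and ran from 0.29 to 0.33 without single arrays. On the hair follicle score the count of 0 became 1 with slide as a block (Usp5), 1 with the 6 scores together (Usp40), 1 under normexp with quantile scaling (Usp16) and 2 without the 2 arrays farthest from the median. The cause was not tested. In the main fit 4.29% of all probes passed on this score, and the share under these other settings is not given here. For the other 4 scores the count stayed 0 under all 28 settings. The number of family probes at an unadjusted p under 0.05 between groups lay between 4 and 8. It was 8 with array weights, where 6.22% of all probes had such a p in limma, and 4 with median scaling, where 3.85% did. Nothing is read from these counts. Of the 36 probes, 26 to 29 were lower in exposed skin over the other scalings, background corrections, slide block and array weights, and 25 to 30 without single arrays. Over the former settings the share of all probes that were lower ran from 53.6% with median scaling to 69.2% under normexp. No paired analysis was possible because the labels give no replicate numbers, and those used here follow the order of deposit. Signal near background limits Usp31, Usp13 and Usp11.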

Other observations

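Otud3, a deubiquitinase of the OTU family, was the 1 gene of the other deubiquitinase, partner, ubiquitin and NF-kB lists with a slope past the threshold on any of the 6 scores. It rose with the hair follicle score by 0.32 log2 units per unit (SE 0.059, limma adjusted p = 0.00433), against 4.29% of all probes past the threshold on that score.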
